A study of Homo sapiens with 24 samples.

Results

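Huh1 is a human liver cancer cell line, labelled as hepatocellular carcinoma with a wild-type genotype. It was examined here for its response to loss of SFPQ and to TGF-beta. The 4 Huh1 libraries were chosen by their titles and make up 4 of the 24 libraries of the study. The study measured polyadenylated RNA in 6 liver cancer lines, namely Huh1 and, beside it, HepG2, Huh7, Hep3b, SK-HEP1 and HLE, with 4 libraries a line. In Huh1, 1 library came from cells given a control siRNA (siCTL), 1 from siCTL cells given TGF-beta at 2 ng/ml for 24 hours, 1 from cells given an siRNA against SFPQ (siSFPQ), and 1 from siSFPQ cells given the same TGF-beta. All cells grew in DMEM with 10% serum, so serum factors reached the cells called untreated as well. The labels name no second SFPQ siRNA and no rescue, so effects of SFPQ loss and off-target effects of the siRNA cannot be told apart. They name no separate cultures either, so the p-values measure the spread between these libraries, which may be technical.

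The cytokine TGF-beta binds a pair of serine/threonine kinase receptors, which phosphorylate SMAD proteins that enter the nucleus with SMAD4. In epithelial cells it is known both for halting the cell cycle, through inhibitors such as CDKN1A and CDKN2B, and for raising mesenchymal and matrix genes. SFPQ is a nuclear RNA-binding protein of the DBHS family and a core protein of paraspeckles, bodies built on the long RNA NEAT1, and it is known to support transcription of long genes, splicing and DNA repair.

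With 1 library per group there was no replicate within the line. The knockdown change was therefore taken as the mean of 2 pairs, siSFPQ against siCTL without and with TGF-beta, and the TGF-beta change as the mean of 2 pairs, in siCTL and in siSFPQ cells. Both comparisons use the same 4 libraries. Values are FPKM, fragment numbers scaled by transcript length and by the mapped fragments of the library, and changes are differences of log2(FPKM + 1) with their standard error (SE). That scale understates the change of genes of low level. The error came from how far the pairs of a line disagreed, pooled over the 6 lines in limma, and a gene counted as changed at an adjusted p under 0.05 (Benjamini-Hochberg over 12505 genes with at least 1 FPKM in 2 of the 4 libraries). Depth was estimated from genes of low level: 1 FPKM on a transcript of 1 kb stood for about 14.1 fragments in siCTL, 17.0 in siCTL with TGF-beta, 17.8 in siSFPQ and 10.2 in siSFPQ with TGF-beta, against 6.17 to 29.5 over the 24 libraries. The last Huh1 library was thus the shallowest of its 4.

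SFPQ itself checked the labels. It stood at 90.4 FPKM in siCTL, 84.7 in siCTL with TGF-beta, 36.5 in siSFPQ and 38.0 in siSFPQ with TGF-beta. Both knockdown libraries lay below both control libraries. The fall was −1.21 ± 0.08 (SE) with limma's adjusted p = 4.26e-05, near the shallow end of the −3.26 to −1.15 seen in the other 5 lines. Huh1 began from the lowest SFPQ level of the 6 lines, since untreated siCTL cells of the others held 103 to 247 FPKM. SMAD4, the shared SMAD partner, stood at 5.92, 5.84, 6.23 and 6.18 FPKM in the same order of libraries, with changes of 0.07 ± 0.09 for knockdown (adjusted p = 0.633) and −0.01 ± 0.09 for TGF-beta (adjusted p = 0.948).

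TGF-beta changed 1618 of 12505 genes in Huh1, 659 higher (5.27%) and 959 lower (7.67%), and 112 of the former and 25 of the latter by at least 2-fold. The median change of all genes tested was −0.06. Scaling every library to a common median ratio gave 802 higher and 611 lower, so the balance of the directions depends on the scaling. The named genes tried under that scaling kept their directions, except for the TGF-beta changes of SFPQ and SMAD4, neither of which had passed. Among the 34 tested members of a list of TGF-beta feedback genes and SMAD-bound targets, 26 rose and 1, TGIF2, fell, with a median change of 0.80 against 0.29 to 0.87 in the other 5 lines.

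The feedback genes answered at different strengths. PMEPA1, a membrane protein that draws SMADs away from the receptor, stood at 3.38 FPKM in siCTL, 26.5 in siCTL with TGF-beta, 4.27 in siSFPQ and 54.8 in siSFPQ with TGF-beta. Both treated libraries lay far above both untreated ones, and the change was 3.03 ± 0.21 (adjusted p = 0.000117). SMAD7, the inhibitory SMAD, moved much less, from 14.2 to 19.1 FPKM in siCTL cells and from 12.0 to 16.3 in siSFPQ cells. Its rise of 0.41 ± 0.10 (adjusted p = 0.0257) lay below the range of 0.45 to 2.51 of the other lines, and the call was lost without the shared siRNA by TGF-beta term and with a pseudocount of 0.1. SMURF2, a ubiquitin ligase that acts with SMAD7, went from 6.69 to 12.2 FPKM in siCTL and from 9.68 to 22.4 in siSFPQ cells, a rise of 0.96 ± 0.07 (adjusted p = 0.000131), above the 0.02 to 0.76 elsewhere.

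Effector genes of the list rose too. COL1A1, a fibrillar collagen chain, stood at 0.896 FPKM in siCTL, 5.69 in siCTL with TGF-beta, 1.28 in siSFPQ and 12.7 in siSFPQ with TGF-beta, and it rose by 2.2 ± 0.17 (adjusted p = 0.000131). ANGPTL4, a secreted inhibitor of lipoprotein lipase, was at 17.8, 48.6, 32.6 and 188 FPKM in the same order and rose by 1.95 ± 0.16. In both genes the treated siSFPQ library was the highest of the 4 and the treated siCTL library came next. IL11, a cytokine of the interleukin-6 family, was at 0.849, 4.19, 0.698 and 18.1 FPKM, a change of 2.49 ± 0.51 with an adjusted p of 0.0135 that did not pass without the shared term. IL11 entered the test only through its TGF-beta libraries, so this call supports no count.

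Of 16 receptors and SMADs tested, 2 rose with TGF-beta and none fell, against 5.27% and 7.67% of all genes. TGFBR1, the type I receptor, was at 3.66 FPKM in siCTL, 6.66 in siCTL with TGF-beta, 6.29 in siSFPQ and 15.4 in siSFPQ with TGF-beta, a rise of 0.94 ± 0.09 (adjusted p = 0.000235) above the range of the other lines (−0.23 to 0.77). BMPR2, a type II receptor of bone morphogenetic proteins, rose by 0.53 ± 0.14 (adjusted p = 0.0318). In the neighbouring BMP and ID list, 3 of 11 tested genes fell and 1 rose. ATOH8, a transcription factor induced by BMP signals, fell by 0.97 ± 0.12 on the log2 scale, and HAMP, the iron hormone hepcidin, was at 0.949 FPKM in siCTL, 0.258 in siCTL with TGF-beta, 6.26 in siSFPQ and 3.54 in siSFPQ with TGF-beta and fell by 0.65 ± 0.14. HAMP passed the filter only through its siSFPQ libraries, and its call and that of BMPR2 were lost with a pseudocount of 0.1. The call of BMPR2 was also lost without Hep3b.

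The largest rises of the line included keratins and genes of the cornified envelope. KRT14, a keratin of basal epithelial cells, stood at 0.539 FPKM in siCTL, 11.8 in siCTL with TGF-beta, 2.25 in siSFPQ and 69.9 in siSFPQ with TGF-beta. It changed by 3.75 ± 0.21 (adjusted p = 3.38e-05), while the other 5 lines changed by 0.00 to 0.39. The level of KRT14 in those lines was not set beside that range, and on this scale a low level keeps a change small. KRT17, another keratin of basal cells, was at 60.6, 306, 88.5 and 626 FPKM in the same order and rose by 2.56 ± 0.17 (adjusted p = 0.000102). Both keratins were lowest in siCTL and highest in treated siSFPQ cells.

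Further large rises were those of MDFI, which inhibits MyoD family factors (2.82 ± 0.17), the hair keratin KRT81 (2.61 ± 0.25), the gelatinase MMP2 (2.57 ± 0.23), LCE3E (2.90 ± 0.23), LCE3D (2.98 ± 0.48) and the gonadotropin chain CGB5 (2.38 ± 0.29). KRT14, KRT81 and LCE3E were under 1 FPKM in untreated siCTL cells, and CGB5 in both untreated libraries, so CGB5 entered the test only through the libraries where it is high. KRT14 and KRT17, KRT81 and other hair keratins, LCE3D and LCE3E, and CGB5 and its copies share sequence with near-identical genes, so their reads may have been split, and these values are uncertain. LCE3D and CGB5 also lost their calls in a fit of the 4 Huh1 libraries alone.

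**Figure D1:**
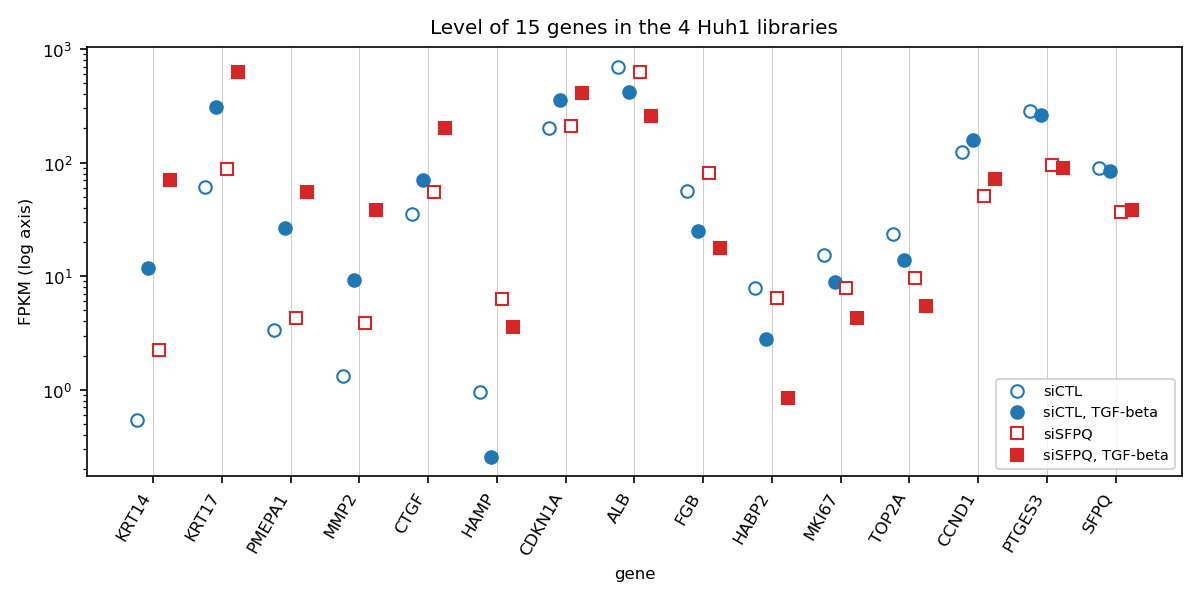
FPKM (log axis) of 15 genes in the 4 Huh1 libraries, 1 point per library, blue for siCTL and red for siSFPQ, filled with TGF-beta and open without. KRT14, PMEPA1 and MMP2 sit highest in siSFPQ cells with TGF-beta, while MKI67 and TOP2A sit lowest there and highest in untreated siCTL cells.

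Genes of actin and of mesenchymal cells rose in 12 of 20 tested members and none fell (median 0.56, other lines 0.32 to 0.66). TPM1, a tropomyosin of stress fibres, was at 194, 415, 189 and 524 FPKM in siCTL, siCTL with TGF-beta, siSFPQ and siSFPQ with TGF-beta, a rise of 1.28 ± 0.10 that is above the 0.47 to 1.14 of the other lines. TAGLN, an actin-binding protein of smooth muscle, rose by 1.34 ± 0.15, and ITGB1, the common integrin beta chain, by 0.69 ± 0.07. Matrix genes rose in 11 of 23 tested members and none fell (median 0.35), with 6 risers without the shared siRNA by TGF-beta term and 7 with the 4 Huh1 libraries alone. Among the 11 were COL7A1 (1.07 ± 0.13), LAMB3 (0.81 ± 0.09) and the collagen-modifying enzyme PLOD2 (0.67 ± 0.07), whose call was lost without the shared term. Fibronectin FN1, at 1621 FPKM in siCTL, 1556 in siCTL with TGF-beta, 2110 in siSFPQ and 2322 in siSFPQ with TGF-beta, changed by 0.04 ± 0.27 (adjusted p = 0.946).

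Epithelial junction and keratin genes showed no common direction, with 3 of 21 higher and 3 lower. Of all genes 5.27% were higher and 7.67% lower. JUP, the junction protein plakoglobin, was at 48.7, 91.0, 65.8 and 137 FPKM and rose by 0.97 ± 0.08, whereas in the other lines it changed by −1.12 to 0.24. TJP3, a tight junction protein, fell by 0.88 ± 0.16 and CLDN2, a pore-forming claudin, by 0.82 ± 0.15. E-cadherin CDH1 was at 23.8, 21.5, 26.5 and 22.5 FPKM, and its change of −0.19 ± 0.13 did not pass (adjusted p = 0.37).

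In the YAP and TEAD list, which holds pathway members such as YAP1 and TEAD2 beside targets, 6 of 20 rose and none fell. CTGF, a matricellular protein, was at 35.1 FPKM in siCTL, 69.9 in siCTL with TGF-beta, 54.8 in siSFPQ and 203 in siSFPQ with TGF-beta. Its rise of 1.42 ± 0.14 (adjusted p = 0.000264) lay above the 0.09 to 0.86 of the other lines. CYR61, of the same family, was at 13.2, 25.7, 29.3 and 85.3 FPKM and rose by 1.21 ± 0.12. Immediate early genes rose in 6 of 24 members and fell in 2, with JUNB (0.95 ± 0.14) and FOSB (0.83 ± 0.13) among the former. In the inflammatory list 4 of 21 rose and 6 fell: the chemokine CCL2 was at 0.905, 5.60, 0.921 and 6.52 FPKM (a change of 1.88 ± 0.16), and the lipocalin LCN2 fell by 0.71 ± 0.15, a call lost with a pseudocount of 0.1. CCL2, FOSB and IL1B, another of the 4 inflammatory risers (0.434, 1.55, 0.601 and 7.44 FPKM), were under 1 FPKM in both untreated libraries. They entered the test only through the TGF-beta libraries where they are high, so their calls support no count. Over all genes tested 5.27% rose and 7.67% fell.

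The cell cycle inhibitors CDKN1A and CDKN2B rose with TGF-beta. CDKN1A, the inhibitor p21, was at 201 FPKM in siCTL, 355 in siCTL with TGF-beta, 211 in siSFPQ and 410 in siSFPQ with TGF-beta. The treated libraries lay well above the untreated ones under both siRNAs, and the rise of 0.89 ± 0.09 (adjusted p = 0.000297) was above the −0.51 to 0.35 of the other lines. CDKN2B, the inhibitor p15, was at 31.9, 47.2, 36.0 and 68.6 FPKM and rose by 0.73 ± 0.11 (adjusted p = 0.00266). Untreated siCTL cells of the other lines held 0.014 to 7.93 FPKM of CDKN2B, all less than Huh1.

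In the cytostatic list as a whole 3 of 17 rose and 4 fell, against 5.27% higher and 7.67% lower of all genes. The stress gene GADD45B was the third riser (1.20 ± 0.09), and the phosphatase CDC25A (−0.75 ± 0.09) and the transcription factor E2F1 (−0.55 ± 0.09), both of which drive entry into S phase, were among the fallers. Of 19 p53 targets 4 rose and 1 fell (5.26%), the latter share below the 7.67% of all genes. The risers held CDKN1A again, the oxidoreductase TP53I3, at 228, 417, 239 and 459 FPKM (0.90 ± 0.08), and the DNA damage binding protein DDB2, at 8.41, 15.0, 7.20 and 20.0 FPKM (1.06 ± 0.10).

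Genes of mitosis fell together in Huh1. Of 30 genes of G2/M phase and mitosis, 25 fell with TGF-beta and none rose, with a median change of −0.59. The other 5 lines had medians of −0.12 to 0.09. All 30 changes, −0.75 to −0.15, were below the range of the other 5 lines, a position that 17.3% of all genes tested held, and in 28 of the 30 each of the 2 pairs lay below that range. The median was −0.52 in siCTL and −0.62 in siSFPQ cells. In the same 29 of 30 genes untreated siCTL was the highest of the 4 libraries and treated siSFPQ the lowest, CDC25B being the exception. Tested gene by gene against the spread between the other lines, 0 of 30 differed at an adjusted p under 0.05 (smallest 0.398) and 24 did at an unadjusted p under 0.05, all lower in Huh1. In bulk RNA fewer cycling cells and less RNA per cycling cell cannot be told apart.

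The promoters of 4 of these genes, chosen among those with the smallest p, show the letters that many genes of this group share. Cell cycle genes of late phases are known for the CHR element, here TTTGAA, and for CCAAT boxes, which the factor NF-Y binds. The sequences are from RefSeq on GRCh38.p14, minus strand, 250 bases before to 50 after the start site, with each TTTGAA or CCAAT in capitals as found on either strand (TTCAAA and ATTGG when read on the other one).
MKI67 at chr10:128126374-128126673: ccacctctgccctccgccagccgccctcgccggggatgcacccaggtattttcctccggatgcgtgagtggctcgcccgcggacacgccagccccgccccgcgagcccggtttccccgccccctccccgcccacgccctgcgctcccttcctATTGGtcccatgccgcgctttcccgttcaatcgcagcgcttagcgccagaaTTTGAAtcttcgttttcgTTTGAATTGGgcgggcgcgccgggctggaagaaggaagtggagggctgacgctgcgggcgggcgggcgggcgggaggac
BUB1 at chr2:110678014-110678313: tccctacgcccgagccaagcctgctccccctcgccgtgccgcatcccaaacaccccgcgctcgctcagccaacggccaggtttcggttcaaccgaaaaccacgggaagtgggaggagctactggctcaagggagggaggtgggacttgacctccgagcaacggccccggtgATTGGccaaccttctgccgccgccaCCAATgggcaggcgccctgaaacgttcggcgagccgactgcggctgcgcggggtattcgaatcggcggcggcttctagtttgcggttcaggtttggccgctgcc
TOP2A at chr17:40417847-40418146: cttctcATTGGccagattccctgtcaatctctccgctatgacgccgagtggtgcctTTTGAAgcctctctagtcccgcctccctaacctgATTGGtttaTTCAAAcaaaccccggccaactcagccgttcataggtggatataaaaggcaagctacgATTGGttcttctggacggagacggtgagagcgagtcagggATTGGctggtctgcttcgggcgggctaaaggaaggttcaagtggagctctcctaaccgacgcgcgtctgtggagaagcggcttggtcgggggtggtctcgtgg
CCNA2 at chr4:121823834-121824133: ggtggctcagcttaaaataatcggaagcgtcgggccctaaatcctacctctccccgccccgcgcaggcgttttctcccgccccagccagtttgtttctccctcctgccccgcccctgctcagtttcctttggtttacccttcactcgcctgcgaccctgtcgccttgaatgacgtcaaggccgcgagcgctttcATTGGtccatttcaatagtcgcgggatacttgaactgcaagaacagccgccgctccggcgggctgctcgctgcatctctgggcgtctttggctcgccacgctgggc
MKI67 held TTTGAA at −47 and −29 bases from the start and ATTGG at −98 and −24, and the TTTGAA at −29 overlaps the ATTGG at −24. TOP2A held both motifs. BUB1 and CCNA2 held CCAAT boxes but no exact TTTGAA, and variants of the CHR element were not searched. Of 30 G2/M genes 25 matched 1 promoter by symbol, and 16 of them (64.0%) held TTTGAA and 20 (80.0%) CCAAT. Among all 27305 promoters the shares were 15.4% and 35.7%, and among 8858 genes tested in Huh1 9.54% and 36.9%. Of 27 matched G1/S genes, 1 (3.7%) held TTTGAA and 14 (51.9%) CCAAT. The SMAD box CAGAC, which reads as GTCTG on the other strand, was searched too and stood in 15 of 26 matched feedback genes and targets (57.7%), against 45.0% of all promoters and 42.8% of those of tested genes. The same box stood in 11 of 18 matched plasma protein genes (61.1%), 10 of 25 G2/M genes (40.0%) and 11 of 27 G1/S genes (40.7%). It was thus no more frequent in the feedback and target list than in the plasma protein list. These matches describe the letters in the window and were not tested.

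All 4 of these genes were highest in untreated siCTL cells, lower with either agent alone and lowest with both. MKI67, the proliferation antigen Ki-67, was at 15.3 FPKM in siCTL, 8.81 in siCTL with TGF-beta, 7.84 in siSFPQ and 4.26 in siSFPQ with TGF-beta. TGF-beta lowered it by −0.74 ± 0.07 (adjusted p = 0.000235; other lines −0.30 to 0.13). BUB1, a spindle checkpoint kinase, was at 12.2, 7.49, 8.19 and 4.26 FPKM (−0.72 ± 0.07). TOP2A, the topoisomerase that untangles sister chromatids, was at 23.4, 13.8, 9.56 and 5.51 FPKM (−0.71 ± 0.07), and cyclin A, CCNA2, at 11, 5.90, 5.81 and 3.22 FPKM (−0.75 ± 0.08). No untreated library lay below its treated partner. The smallest of the 30 falls were those of CENPF (−0.28, adjusted p = 0.0825) and CDC25C (−0.15, adjusted p = 0.511), which did not pass.

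**Figure D2:**
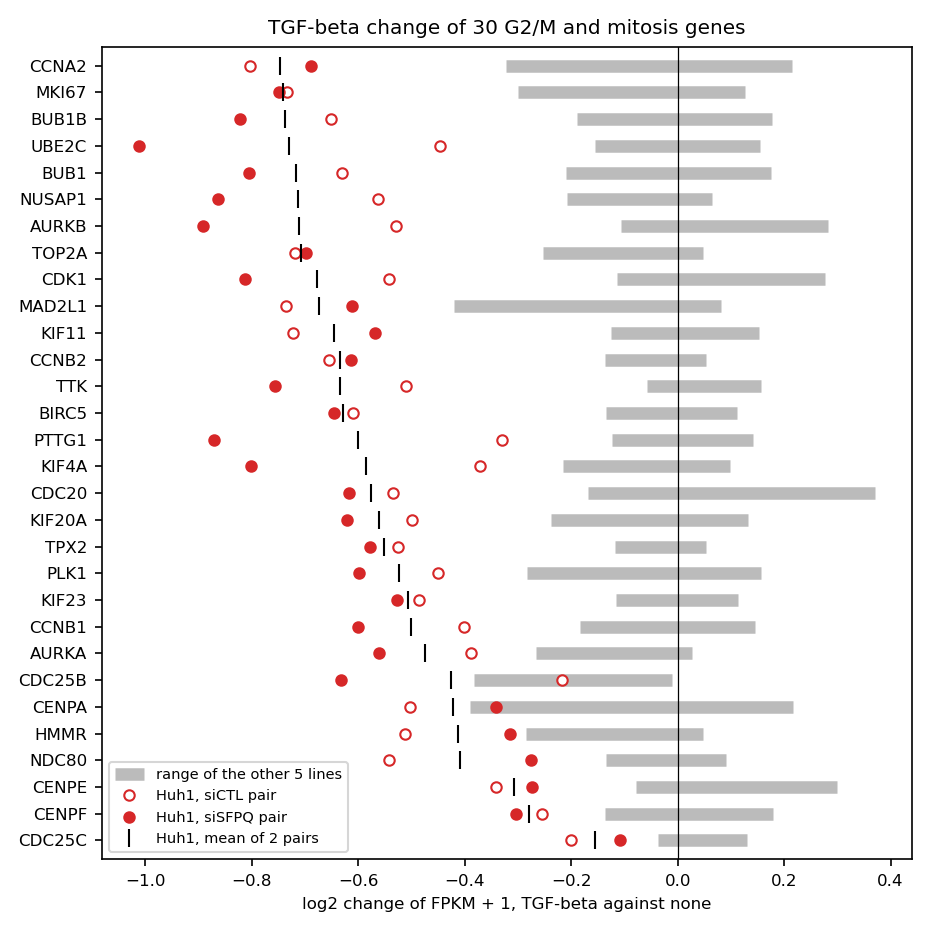
TGF-beta change (log2) of 30 genes of G2/M and mitosis in Huh1, with 1 point for each pair, the mean of the 2 pairs, and a grey bar for the range of the other 5 lines. All 30 means, from −0.75 to −0.15, lie to the left of their grey bar.

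Replication genes moved the same way. Of 33 tested genes of G1/S and DNA replication, 27 fell with TGF-beta and 1 rose, median −0.52 (other lines −0.26 to 0.06). Below the range of the other lines lay 28, a position that 17.3% of all genes tested held. RRM2, a subunit of ribonucleotide reductase, was at 18.2 FPKM in siCTL, 8.97 in siCTL with TGF-beta, 10.1 in siSFPQ and 4.30 in siSFPQ with TGF-beta, a change of −1.0 ± 0.12. The licensing factor CDT1 changed by −0.76 ± 0.08, the helicase subunit MCM4 by −0.66 ± 0.08 and thymidine kinase TK1 by −0.88 ± 0.11. CCND1, cyclin D1, was the 1 riser, at 123, 157, 51.1 and 71.7 FPKM (0.41 ± 0.10, adjusted p = 0.0216). Homologous recombination and Fanconi genes fell in 10 of 22 and rose in none, led by the nuclease EXO1 at 10.1, 4.82, 5.83 and 1.48 FPKM (−1.20 ± 0.11). With a filter at 5 FPKM 13 of these genes were tested and 6 fell. Against the other lines no gene of either list passed after adjustment (smallest 0.0931 and 15 of 33 at an unadjusted p under 0.05 for G1/S, 10 of the recombination genes).

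Secreted liver proteins fell as well. ALB, serum albumin, stood at 701 FPKM in siCTL, 419 in siCTL with TGF-beta, 628 in siSFPQ and 259 in siSFPQ with TGF-beta. Both treated libraries lay below both untreated ones, and the change was −1.01 ± 0.15 (adjusted p = 0.00191) against −0.10 to 0.13 in the other lines. FGB, the fibrinogen beta chain, was at 56.6, 24.9, 81.3 and 17.7 FPKM (−1.65 ± 0.27). The gamma chain FGG was at 86.2, 35.2, 128 and 27.4 FPKM (−1.72 ± 0.26) and the alpha chain FGA at 93.5, 43.5, 123 and 33.4 FPKM (−1.47 ± 0.31). All 3 chains were highest in siSFPQ cells without TGF-beta and lowest in siSFPQ cells with it. AHSG (−1.28 ± 0.22) and the iron carrier TF, transferrin (−0.80 ± 0.14), fell with them.

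Of 27 plasma protein genes 23 were tested, 11 fell and none rose, with a median of −0.39 (other lines −0.09 to 0.21). Below the range of the other lines lay 12, a position that 17.3% of all genes tested held, and 7.67% of all genes fell. With a pseudocount of 0.1 only 5 of the 23 fell past the threshold. Against the other lines 0 passed after adjustment (smallest 0.109) and 9 had an unadjusted p under 0.05, all lower in Huh1. The median log2 level of the 23 tested genes, as a mean of the 4 libraries of a line, was 5.69 in Huh1, 8.32 in Huh7 and 9.01 in HepG2, but 0.64 in Hep3b, 1.02 in HLE and 0.91 in SK-HEP1, and the part of these low levels in the range of the other lines was not tested. The summed level in Huh1 was 3076 in siCTL, 2374 in siCTL with TGF-beta, 3741 in siSFPQ and 2370 in siSFPQ with TGF-beta, against 24.8 to 25595 over the libraries of the other lines.

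**Figure D3:**
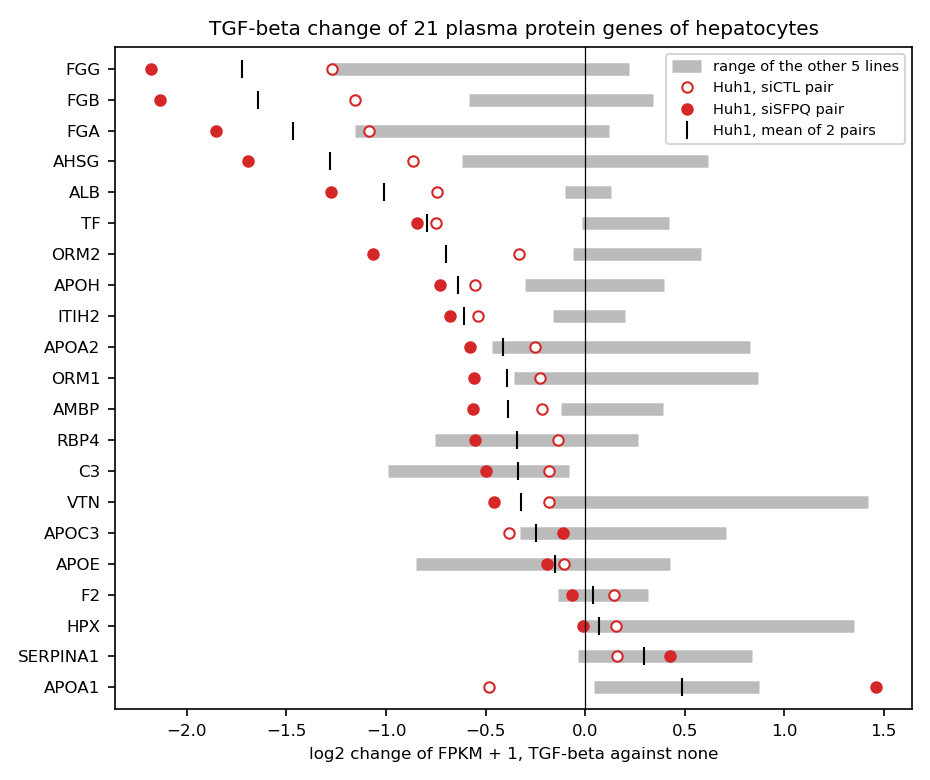
TGF-beta change (log2) of 21 plasma protein genes in Huh1, with 1 point for each pair, the mean of the 2 pairs, and a grey bar for the range of the other 5 lines. The means of FGG, FGB, FGA, AHSG and ALB lie farthest to the left, from −1.72 to −1.01.

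Hepatocyte transcription factors fell in 6 of 19 tested members and rose in 1, against 7.67% and 5.27% of all genes. NR1H4, the bile acid receptor FXR, was at 3.63, 1.60, 3.33 and 0.407 FPKM in the usual order of libraries (−1.23 ± 0.18), ONECUT1 changed by −0.82 ± 0.14 and FOXA3 by −0.73 ± 0.13. HSD17B2, a steroid dehydrogenase, at 11.4, 3.96, 8.99 and 1.20 FPKM, had the largest fall past the test where the log2 level averaged 2 or more (−1.75 ± 0.19). FABP1, the liver fatty acid binding protein, fell by 1.35 ± 0.15 and the mucosal disulfide isomerase AGR2, at 214, 105, 173 and 55.5 FPKM, by 1.32 ± 0.22. The calls of HSD17B2, FGA, FABP1, AGR2 and FOXA3 were lost with a pseudocount of 0.1.

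Of 10 cholangiocyte markers 7 were tested and 3 passed as higher with TGF-beta: KRT7 at 696, 1154, 978 and 1610 FPKM (0.72 ± 0.11), the transcription factor SOX9 (0.81 ± 0.16) and the water channel AQP1 (1.34 ± 0.22), which lost its call without the shared term and entered the test only through its TGF-beta libraries. The median of the 7, 0.55, compares with 0.06 to 0.19 in the other lines. Of the 7, 2 lay above the range of the other lines and 1 below, and KRT7 lay inside its −0.32 to 1.77. Over the 8 markers that passed the filter across all lines the median was 0.32, against 0.10 to 0.17. Most markers of other cell types were near 0: 10 of 12 endothelial and 10 of 14 immune markers were under 1 FPKM in all 4 Huh1 libraries, 3 and 2 of them at 0, as were 7 of 12 stellate and fibroblast markers. Their summed levels were 10.8 to 35.8 FPKM for the endothelial, 58.8 to 69.9 for the immune and 65.0 to 88.5 for the stellate and fibroblast list, where LUM alone held 60.5 to 77.1 FPKM. Of the 4 stellate and fibroblast markers tested 3 passed as higher with TGF-beta: COL1A1, DCN (0.45 ± 0.11) and DES (0.43 ± 0.10), and DCN and DES entered the test only through their TGF-beta libraries. The part of such cells in the results was not tested. ROBO4, an endothelial guidance receptor, was at 0.464, 3.50, 1.77 and 13.9 FPKM and rose by 2.02 ± 0.19, while PECAM1 was under 1 FPKM and PLVAP at 0 in all 4 libraries.

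**Figure D4:**
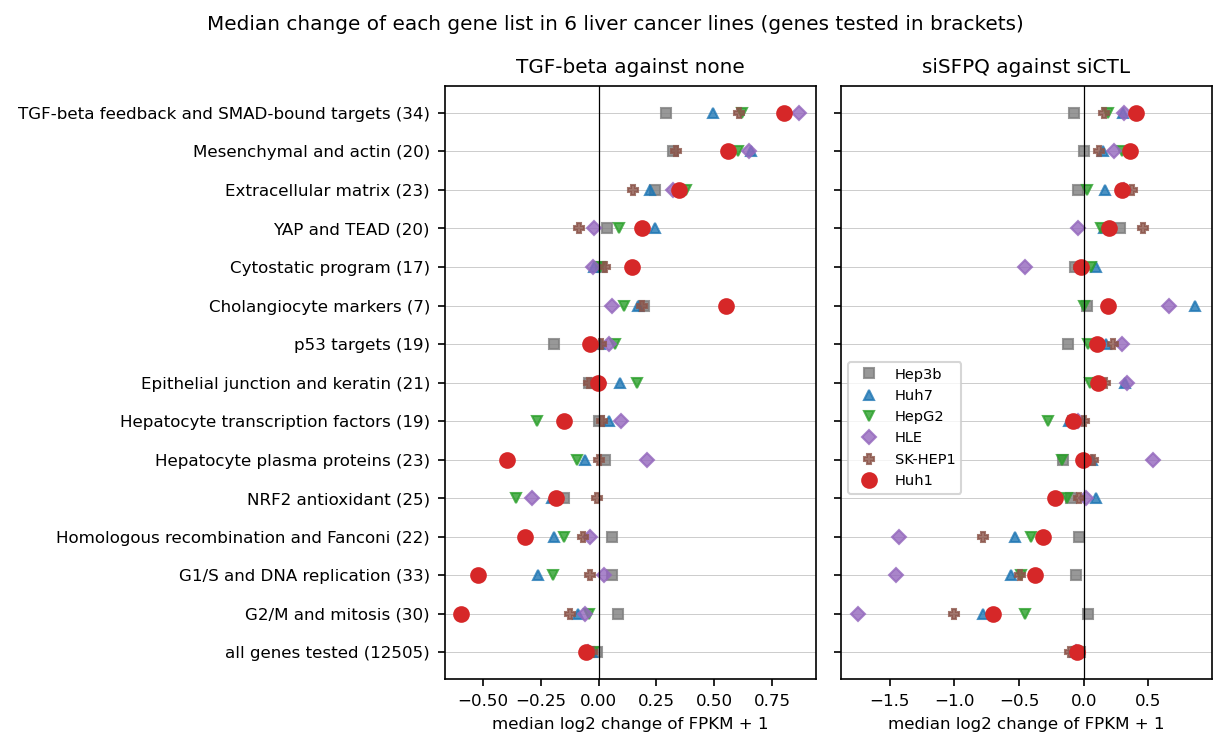
Median log2 change of each gene list in the 6 lines, for TGF-beta and for SFPQ knockdown, with Huh1 as large red circles and the other 5 lines as smaller marks of their own shape. Huh1 stands to the left of the other lines for G2/M (−0.59), G1/S (−0.52) and plasma protein genes (−0.39) with TGF-beta, and within them for G2/M (−0.70) with knockdown.

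SFPQ knockdown changed 2601 of 12505 genes (20.8%), 883 higher (7.06%) and 1718 lower (13.7%), with a median of −0.05 over all genes tested. Scaled to a common median ratio the split was 1168 higher and 1222 lower. Most changes were small, and 51 rises and 49 falls reached 2-fold. In both comparisons the 2 pairs had the same sign in nearly every called gene, 2600 of 2601 for knockdown and 1617 of 1618 for TGF-beta. The calls rest on the mean of these same pairs, so this agreement follows from the selection. Over all genes tested the 2 pairs correlated at r = 0.683 for knockdown and r = 0.719 for TGF-beta.

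The largest falls included genes that were lower in all 6 lines. PTGES3, the co-chaperone p23, was at 283 FPKM in siCTL, 263 in siCTL with TGF-beta, 96.1 in siSFPQ and 88.9 in siSFPQ with TGF-beta, a change of −1.55 ± 0.10 (adjusted p = 3.8e-05; other lines −3.67 to −1.33). RTN3, a reticulon of the endoplasmic reticulum, was at 75.6, 73.4, 28.6 and 28.4 FPKM (−1.36 ± 0.06, adjusted p = 1.29e-05). SENP3, a SUMO protease, was at 65.2, 63.4, 23.1 and 23.6 FPKM (−1.42 ± 0.10). In each of the 3 genes both siSFPQ libraries lay well below both siCTL ones, and the TGF-beta change did not pass.

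Other falls lay outside the range of the other lines. SLCO2B1, an organic anion transporter, was at 61.4, 58.1, 26.9 and 20.1 FPKM (−1.32 ± 0.18; other lines −0.76 to 0.42). SPTSSB, a subunit of serine palmitoyltransferase, was at 11.1, 5.51, 4.18 and 1.68 FPKM (−1.25 ± 0.08; other lines −0.13 to 0.03), and TFF1, a secreted trefoil peptide, at 37.5, 31.1, 12.4 and 12.3 FPKM (−1.40 ± 0.15; other lines −0.92 to 0.08). The call of TFF1 was lost with a pseudocount of 0.1. Levels of these genes in the other lines, which on this scale limit the size of a change, were not set beside the ranges. No gene's knockdown change differed from the other 5 lines in limma's test over 13496 genes (0 at an adjusted p under 0.05, 149 at an unadjusted p under 0.05).

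Among rises, HABP4, an mRNA-binding protein, was at 5.12 FPKM in siCTL, 5.33 in siCTL with TGF-beta, 17.1 in siSFPQ and 16.3 in siSFPQ with TGF-beta. It rose by 1.51 ± 0.08 (adjusted p = 2.18e-05), inside the 1.26 to 2.04 of the other lines. The small heat shock protein CRYAB was at 3.32, 3.06, 12.8 and 14.9 FPKM (1.82 ± 0.32; other lines −0.02 to 1.26), and the muscle ubiquitin ligase TRIM54 at 5.52, 10.6, 22.3 and 29.6 FPKM (1.62 ± 0.13; other lines 0.00 to 1.34). BIRC7, an inhibitor of apoptosis, was at 12.6, 22.2, 32.6 and 71.8 FPKM (1.48 ± 0.13; other lines 0.05 to 0.69). CRYAB did not differ by TGF-beta beyond its error (0.06 ± 0.32, adjusted p = 0.931), whereas BIRC7 and TRIM54 rose with either agent.

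Of 18 paraspeckle genes 3 rose and 2 fell, the latter share below the 13.7% of all genes. NEAT1, their scaffold RNA, was at 74.8, 92.1, 148 and 168 FPKM (0.91 ± 0.14, adjusted p = 0.00166) and PSPC1, a DBHS partner of SFPQ, at 31.5, 32.0, 46.8 and 48.9 FPKM (0.58 ± 0.07). NONO, the third DBHS protein, was at 206, 196, 208 and 184 FPKM, and its change of −0.04 ± 0.06 did not pass (adjusted p = 0.668). EWSR1 (−0.64 ± 0.07) and TAF15 (−0.47 ± 0.08), RNA-binding proteins of the FET family, fell.

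Proliferation genes fell with knockdown too. Of 30 G2/M genes 28 fell and none rose (median −0.70), and 27 of 33 G1/S genes fell (median −0.37), inside the medians of the other lines, which ran from −1.75 to 0.03 and from −1.45 to −0.06. TOP2A fell by 1.20 ± 0.07 on the log2 scale, the kinase CDK1, at 22.9, 15.4, 11.4 and 6.06 FPKM, by 1.08 ± 0.08 and the mitotic kinesin KIF20A by 0.99 ± 0.08. CCND1, which had risen with TGF-beta, fell by 1.18 ± 0.10 (adjusted p = 9.47e-05). Of 22 recombination and Fanconi genes 11 fell, with FANCD2 at −0.82 ± 0.10 and FANCI at −0.57 ± 0.07, and 7 of the 13 tested with a filter at 5 FPKM. In a fit of the 4 Huh1 libraries alone 17 of the 33 G1/S genes fell.

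Part of the TGF-beta target list rose with knockdown. Of the 34 feedback genes and targets 13 rose and 1 fell with siSFPQ, with a median of 0.40 against −0.07 to 0.31 in the other lines, and 7 lay above the range of those lines, a position that 15.6% of all genes tested held. CYR61 rose by 1.39 ± 0.12 (adjusted p = 0.000121), ANGPTL4 by 1.38 ± 0.16 and SMURF2 by 0.65 ± 0.07. ADAM19, a membrane metalloprotease, was at 0.559, 2.33, 1.82 and 13.8 FPKM and rose by 1.5 ± 0.18. TGFBR1 rose by 0.87 ± 0.09 while BMPR2 (−0.56 ± 0.14) and ACVR1 (−0.41 ± 0.13) fell. Without the shared siRNA by TGF-beta term 8 of the 34 rose, and ANGPTL4 was among the calls lost. The call of ACVR1 was lost without Hep3b or SK-HEP1. SMAD7 changed by −0.22 ± 0.10 (adjusted p = 0.144), CDKN1A by 0.14 ± 0.09 (adjusted p = 0.302) and CDKN2B by 0.35 ± 0.11 (adjusted p = 0.0513), none past the threshold.

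BMP and ID genes rose in 4 of 11 members, HAMP among them, and fell in none, against 7.06% higher and 13.7% lower of all genes. ID3, an inhibitor of helix-loop-helix factors, was at 131, 114, 234 and 196 FPKM (0.80 ± 0.08) and HAMP changed by 1.87 ± 0.14 against −0.69 to 0.48 elsewhere. HAMP entered the test only through its siSFPQ libraries, so its call supports no count. ATOH8 rose by 0.61 ± 0.12 with knockdown. Mesenchymal and actin genes rose in 8 of 20 and fell in 2, with VIM, vimentin, at 727, 1088, 985 and 1566 FPKM (0.48 ± 0.08) and MYL9, a myosin light chain, lower by −0.68 ± 0.14. Without the shared term 5 of the 20 rose. Immediate early genes rose in 8 of 24 and fell in none, with IER2 at 0.92 ± 0.15 and the phosphatase DUSP1 at 0.74 ± 0.12. Members of the YAP and TEAD list rose in 7 of 20 and fell in none.

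Oxidative phosphorylation genes fell in 10 of 38 and rose in none: SDHA, of complex II, was at 75.1, 71.4, 33.8 and 31.4 FPKM (−1.14 ± 0.10) and NDUFB10, of complex I, changed by −1.0 ± 0.07. Cholesterol synthesis genes fell in 6 of 25 against 13.7% of all genes, with a median of −0.11 inside the −0.32 to 0.03 of the other lines. Of 24 genes of the integrated stress and unfolded protein responses 4 fell and 1 rose, shares near those of all genes (13.7% and 7.06%). Among the 5 were XBP1, at 130, 85.8, 60.9 and 49.6 FPKM (−0.93 ± 0.08), and DDIT4, at 61.4, 94.6, 128 and 212 FPKM (1.10 ± 0.18). Plasma protein genes did not fall as a group with knockdown, where 3 of 23 rose and 1 fell: APOE, at 205, 191, 377 and 330 FPKM, rose by 0.83 ± 0.10 and APOA2, at 303, 255, 706 and 473 FPKM, by 1.06 ± 0.16.

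The joint effect of both agents is 1 value per gene, the TGF-beta change in siSFPQ cells minus that in siCTL cells, with no test within the line. Of 10302 genes whose log2 level averaged 2 or more, 59 (0.573%) lay at least 0.5 outside the range of the other 5 lines, a count that was 20 with a pseudocount of 5. AFP, the fetal albumin, was at 23.3 FPKM in siCTL, 15.5 in siCTL with TGF-beta, 11.3 in siSFPQ and 33.2 in siSFPQ with TGF-beta. The difference of 2.03 compares with −1.74 to 0.41 elsewhere, and AFP was highest with both agents and lowest with siSFPQ alone. GSTP1, a glutathione transferase, was at 3.26, 2.51, 2.06 and 6.65 FPKM (1.60), and TGM3, an epidermal transglutaminase, at 18.8, 14.3, 12.1 and 4.37 FPKM (−0.92; other lines −0.04 to 0.17).

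For the feedback genes and targets the median difference was 0.32, positive in 31 of 34, inside the 0.14 to 0.53 of the other lines, while over all genes tested it was −0.04. For plasma protein genes it was −0.31, positive in 4 of 23, below the −0.18 to 0.48 of the other lines. Several of these values rest on the shallowest Huh1 library, treated siSFPQ, and the part of its depth in them was not tested.

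Set against the spread between the other 5 lines, the TGF-beta change differed in 2 of 13496 genes (0.0148%, with 1 higher and 1 lower at 0.00741% each; 570 at an unadjusted p under 0.05). PRRX2, a homeobox factor of mesenchyme, was at 1.27 FPKM in siCTL, 5.09 in siCTL with TGF-beta, 1.31 in siSFPQ and 11.3 in siSFPQ with TGF-beta. Its change exceeded that of the other lines, which were between −0.08 and 0.14, by 1.87 ± 0.14 (adjusted p = 0.0365). HABP2, a secreted serine protease made by hepatocytes, was at 7.81, 2.79, 6.44 and 0.851 FPKM. It was lower by −1.58 ± 0.13 (adjusted p = 0.0365) than the −0.10 to 0.01 of the other lines. Neither call held when any 1 of the other 5 lines was left out, where 0 genes passed. Both were also lost with a pseudocount of 0.1 and with a filter at 5 FPKM. On this scale a gene of low level changes little, and the levels of PRRX2 and HABP2 in the other lines were not set beside these ranges.

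The level of expression, the mean over the 4 libraries, differed from the other lines in 85 of 13835 genes, 83 higher (0.6%) and 2 lower (0.0145%). A gene entered this test with 1 FPKM in 6 of 24 libraries, or in 2 of the 4 Huh1 libraries. Genes high in Huh1 alone could thus enter through the libraries where they are high. Such calls, and the split of 83 to 2, support no count. LGALS4, a galectin of gut epithelium, was at 256, 242, 245 and 212 FPKM in Huh1 and higher by 7.51 ± 0.55 (adjusted p = 0.0134) than in the other lines. MSC, the factor musculin, was at 155, 204, 139 and 168 FPKM (7.23 ± 0.42, adjusted p = 0.00987) and the adhesion protein CEACAM6 at 64.1, 63.0, 61.7 and 59.9 FPKM (5.95 ± 0.36). In each other line the mean log2 level was at most 0.26 for MSC and 0.08 for CEACAM6. The matrix metalloprotease MMP7 (6.67 ± 0.66), AGR2 (6.45 ± 0.61), the cancer-testis antigen CTAG2 (7.05 ± 0.42), the neuronal protein MAP2 (5.97 ± 0.46) and UGT1A6 (6.48 ± 0.69), whose last exons are shared with other UGT1A genes, were also higher. LGALS3, a galectin, was at 1.17, 0.613, 0.349 and 1.15 FPKM and lower by −5.85 ± 0.73, and FKBP10, a collagen chaperone, by −4.21 ± 0.38. The count was 0 when Hep3b, HLE or SK-HEP1 was left out.

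Genes of the NRF2 antioxidant response stood high in every Huh1 library. Of 25 genes 23 were above the range of the other 5 lines in mean level, a position that 22.2% of all genes tested held, and the median log2 level was 8.69 against 4.63 to 6.41. NRF2 is a factor that KEAP1 holds in check and that raises enzymes of glutathione, NADPH and quinone metabolism. GCLM, a subunit of glutamate cysteine ligase, was at 161 FPKM in siCTL, 137 in siCTL with TGF-beta, 82.7 in siSFPQ and 81.7 in siSFPQ with TGF-beta, against 13.7 to 21.7 in untreated siCTL cells of the other lines. It was the 1 member past the test of level (3.25 higher, adjusted p = 0.0201), and 11 had an unadjusted p under 0.05.

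AKR1B10, an aldo-keto reductase, was at 2628, 1809, 2385 and 1094 FPKM, against 0.662 to 117 in untreated siCTL cells of the other lines, and it shares sequence with a close paralog, so its level is uncertain. ME1, malic enzyme, was at 50.5, 43.0, 64.5 and 59.2 FPKM, against 0.109 to 15.9. All 4 Huh1 libraries of both genes exceeded every untreated siCTL library of the other lines. NFE2L2, which encodes NRF2, was not among them, at 84.6, 80.8, 82.4 and 80.8 FPKM inside 32.4 to 162. TGF-beta lowered 3 of the 25, among them CBR1 (−0.43 ± 0.07) and PGD (−0.25 ± 0.06), and raised none. Of all genes tested it lowered 7.67% and raised 5.27%. The call of PGD was lost under a common median ratio and with the 4 Huh1 libraries alone. Knockdown lowered 7 and raised 1, with GCLM at −0.84 ± 0.14, the sulfiredoxin SRXN1 at −0.71 ± 0.14 and ME1 at 0.40 ± 0.09, the last lost with a pseudocount of 0.1. Over all genes tested knockdown lowered 13.7% and raised 7.06%.

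**Figure D5:**
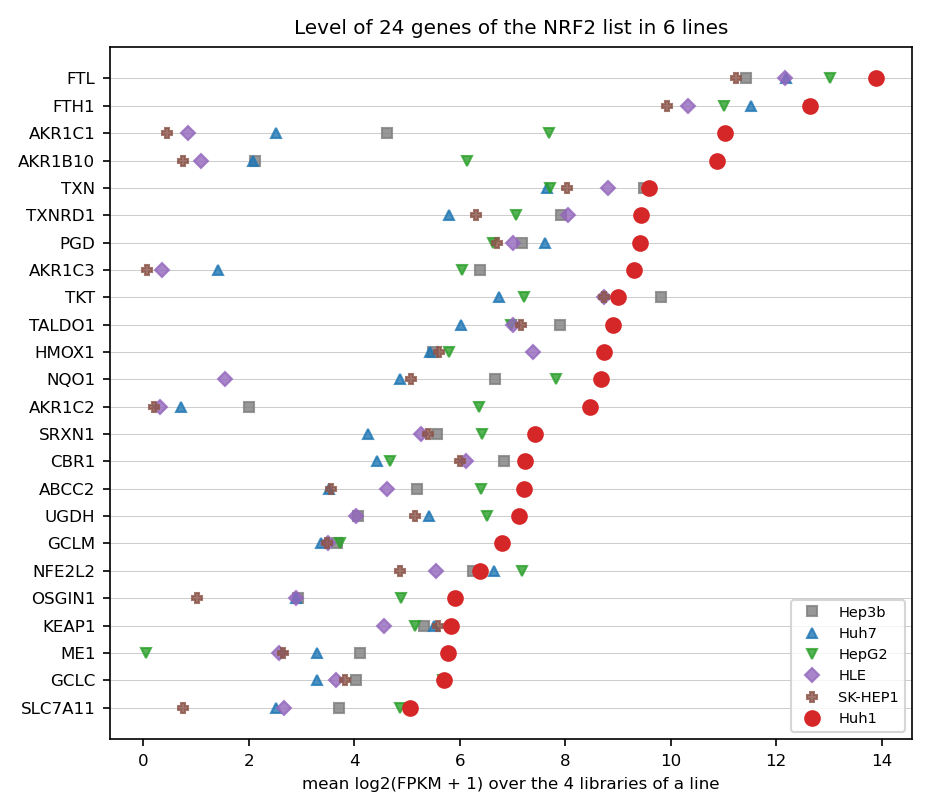
Mean log2(FPKM + 1) of 24 genes of the NRF2 list over the 4 libraries of each line, with Huh1 as large red circles and the other 5 lines as smaller marks. Huh1 is the highest of the 6 lines for 22 of the 24 genes drawn, the exceptions being NFE2L2 and TKT.

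Huh1 kept some hepatocyte RNAs and lacked others. In untreated siCTL cells ALB was at 701 FPKM, the lipoprotein APOA2 at 303 and the bikunin precursor AMBP at 323, while haptoglobin HP, antithrombin SERPINC1, ITIH1 and ITIH3 were under 1 FPKM in all 4 libraries. Some bile duct markers stood high at the same time. Of 8 tested for level, 4 lay above the range of the other lines. None passed limma's test of level (smallest adjusted p 0.67), and 1 had an unadjusted p under 0.05. Of all 10 markers 3 were under 1 FPKM in all Huh1 libraries. KRT7 at 696 FPKM exceeded the 454 of the highest other line, osteopontin SPP1 at 2062 the 1385, and claudin CLDN4 at 283 the 80.2, while CFTR was under 1 FPKM. The summed level of the 10 cholangiocyte markers was 3385 FPKM in siCTL, 4081 in siCTL with TGF-beta, 3911 in siSFPQ and 4779 in siSFPQ with TGF-beta, against 81.5 to 2282 in the libraries of the other lines. SPP1 alone held 2062 of the 3385 FPKM in siCTL.

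Proliferation genes began from a low level. Of 30 G2/M genes 28 had a mean level below the range of the other lines, against 11.8% of all genes tested, and 24 were below it in untreated siCTL cells, where 12.4% of all genes tested were. The median log2 level in untreated siCTL cells was 4.08, against 4.79 to 6.19 in the other lines. None passed the test of level (smallest adjusted p 0.0621, for TOP2A), and 17 had an unadjusted p under 0.05.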

How the data were processed

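Polyadenylated RNA was extracted with Trizol and sequenced on an Illumina HiSeq instrument, per the labels' protocols. The authors deposited 1 table of FPKM values, although its name speaks of counts. TopHat2 2.1.1, Cufflinks 2.2.1 and hg19 stand in the submitters' processing notes. The table has 23284 rows, from which 1603 for short RNAs were dropped to leave 21681, and 1265 values under 1e-06 were set to 0. There are 2 further columns that are empty and were not used.

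Log2(FPKM + 1) was fitted in limma 3.58.1 (R 4.3.3) over 24 libraries, with a mean, an siRNA effect and a TGF-beta effect for each line and 1 shared interaction term, which leaves 5 residual degrees of freedom. The line pairs the libraries, since the labels name it, so the line mean is the replicate block. Within Huh1 the other agent pairs the libraries. Huh1 was compared with the other 5 lines in limma over 6 values per gene (4 residual degrees of freedom). The 2 changes were tested where at least 6 of 24 libraries reached 1 FPKM. The level was also tested where at least 2 of the 4 Huh1 libraries did. P-values were adjusted over all genes tested. Pipelines were tested on simulated data. Figures were drawn in Python 3.11.15.

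Named genes were fixed genes, the 10 largest rises and falls past the threshold with the same sign in both pairs and a log2 level that averaged 2 or more, 8 per direction against the other lines, and the 2 to 4 members of each list with the smallest p. FN1, CDH1, NFE2L2, AKR1B10, HP, CFTR, PECAM1 and others of the lists were chosen after their values were seen. A few genes the rule takes are not reported here. Members and lists were chosen with earlier results of these data known. Depth was read from 2141 genes with 1 transcript: 66.0 to 72.6% of their lowest values in Huh1 sat at 1 fragment after multiplication by length, against 8.2 to 10.8% without. It entered no test. Alternatives tried were other pseudocounts and filters, a common median ratio, plain limma moderation, no shared term, the 4 Huh1 libraries alone, no replicate block and leaving out each other line.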

Additional observations from a re-analysis of the deposited data

Results flagged for a closer look

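In a gap test over the 6 lines, which asks whether 1 line stands apart from its nearest neighbour by more than Dixon's critical share of the whole range, Huh1 stood apart for 3 list medians of the TGF-beta change. The median was −0.593 for genes of G2/M and mitosis, 0.143 for the cytostatic genes and 0.551 for the cholangiocyte markers. Of the 7 cholangiocyte markers tested, 2 lay above the range of the other lines and 1 below. Over 70 such tests, 9 passed in any line, and chance passes about 5% of such tests, so the 3 are given as values only.

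Of single genes, the TGF-beta change of PRRX2 was higher in Huh1 than in the other lines by 1.87, and that of HABP2 differed by −1.58. Each was past limma's test of the difference between lines, but neither call held without any 1 of the other lines.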

How the results depend on the processing

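Knockdown calls in Huh1 (2601) came to 2055 with the 4 Huh1 libraries alone and to 2148 to 3375 without 1 other line. With no replicate block, meaning the 4 Huh1 libraries alone without the other agent as a term that pairs them, there were 0 calls for knockdown (1863 at an unadjusted p under 0.05) and 0 for TGF-beta (993). TGF-beta calls (1618) came to 1027 with a pseudocount of 0.1, 1079 with the 4 Huh1 libraries alone and 1293 to 2160 without 1 line. Against the other lines, the 0 knockdown differences became 28 without a filter and 1832 as a contrast in the 24-library fit. The 2 TGF-beta differences became 404 in that contrast, 4 with plain moderation, 12 with a pseudocount of 5, 92 without a filter, and 0 with a pseudocount of 0.1, a filter at 5 FPKM or without any 1 line. The 85 level differences became 170 with a pseudocount of 5, 380 without a filter, 0 with a pseudocount of 0.1 or a filter at 5 FPKM, and 0 to 119 without 1 line. Genes at least 0.5 outside the range of the joint effect (59) came to 20 with a pseudocount of 5. Scaling to a common median ratio turned the TGF-beta changes of SFPQ (0.0427) and SMAD4 (0.0412), neither past the threshold, and kept the direction of the other named genes tried. It gave 25 falls of G2/M and 24 of G1/S genes with TGF-beta, and 26 and 18 with knockdown. A pseudocount of 0.1 kept 243 named gene results on their side of the threshold and took 53 below it. The causes were not tested. Treated siSFPQ cells have the fewest fragments per FPKM in Huh1, which limits genes of a few FPKM there.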

Other observations

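Oncofetal and cancer-testis RNAs of Huh1 differed in kind. SPINK1, a secreted trypsin inhibitor, was at 509 FPKM in siCTL, 520 in siCTL with TGF-beta, 477 in siSFPQ and 440 in siSFPQ with TGF-beta. The glypican GPC3 was at 4.52, 3.42, 3.76 and 2.98 FPKM in the same order, and DLK1 was listed at 0 in all 4 libraries. Few ribosomal protein genes passed. Of 38, 0 rose and 1 fell with TGF-beta, against 5.27% and 7.67% of all genes. With knockdown 0 rose and 3 fell, against 7.06% and 13.7%. Their median changes of −0.13 with TGF-beta and −0.11 with knockdown were below the −0.06 and −0.05 of all genes tested. None of 18 paraspeckle genes passed for TGF-beta, against 12.9% of all genes.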
